A study of Homo sapiens with 10 samples.

Results

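The integrated stress response (ISR) transcription factors were followed in RPE-1 cells, an established telomerase-immortalized line of human retinal pigment epithelium, after acute exposure to sulforaphane (SFN), an isothiocyanate of cruciferous vegetables. The 10 genes were taken by name from the deposited table of 28380 genes, and each had 1 row: ATF4, ATF3, ATF5, DDIT3, CEBPB, CEBPG, CEBPD, CEBPA, CREB1 and ATF2. Both groups share this line, so a finding rests on a single immortalized line. In 5 replicates cells received 25 µM SFN for 4 h, and the other 5 replicates were kept for as long in DMSO, the vehicle. The methods name 3′ end (QuantSeq) libraries, and the values are raw read counts. CPM, the unit of expression used here, are those counts scaled to a common library size with TMM factors, which correct for composition. The comparison asks how SFN changed the mRNAs of these factors and of the genes around them.

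In the ISR, kinases that sense amino acid shortage, misfolded proteins in the endoplasmic reticulum (ER), double-stranded RNA or heme deficiency phosphorylate the translation factor eIF2 on its alpha subunit. Most translation then falls, while mRNAs with suitable upstream reading frames, those of ATF4, ATF5 and DDIT3 among them, are translated better. ATF4 binds DNA as a dimer with C/EBP or AP-1 proteins, at composite sites called C/EBP-ATF response elements (CARE). All 10 factors are basic leucine zipper proteins, and much of their regulation takes place on protein, which was not measured here.

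The upstream DNA of the genes that rose most is shown because it holds the CARE letters. Of the 10 factors, 8 had gene starts in RefSeq (GRCh38.p14), 15 starts in all, and ATF2 and CEBPD had none in that table. The letters TGATGNAA were searched on both strands in the 1000 bases before each start. They were found before 3 of the 8 genes, ATF3, CEBPG and DDIT3. Counted over starts, 4 of the 15 windows held them, against 4549 of the 35116 windows of all gene starts. The windows of neighbouring DDIT3 starts share the same match and were counted separately. A share over all genes, rather than starts, was not computed. Each stretch is printed on the strand of its gene, with the matching letters in capitals.
ATF3, chr1:212565216-212565223: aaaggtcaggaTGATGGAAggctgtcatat
CEBPG, chr19:33374071-33374078: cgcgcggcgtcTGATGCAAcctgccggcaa
DDIT3, chr12:57520813-57520820: gttgccaaacaTTGCATCAtccccgccccc
The match began 191 bases before a start of ATF3, 42 before a start of CEBPG and 303 and 306 before the neighbouring starts of DDIT3, where it lies in the opposite orientation. None of these matches lay in an exon of its gene. A cyclic AMP response element (TGACGTCA), the site of CREB and ATF dimers, was present 497 bases before the downstream start of ATF3, in 1 of the 15 windows and in 2.37% of all windows.
ATF3, chr1:212614521-212614528: tagtttcagctTGACGTCAagcctctttga
The antioxidant response letters TGACNNNGC, which share their first bases with that element, occurred before ATF5, CEBPB and DDIT3, in 4 of the 15 windows and in 31.9% of all windows. Here too the neighbouring DDIT3 starts share the same match. The C/EBP palindrome TTGCGCAA, the heat shock element and the ER stress response element were found before none of the 8 genes, against 0.353%, 1.57% and 0.131% of all windows. A match is a description of letters and not of binding.

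Total counts ranged from 15689294 to 20666692 in DMSO and from 12375860 to 17308706 in SFN, and 13378 genes, 9 of the 10 factors among them, had enough counts to be tested. DMSO replicate 1 stood apart from the other libraries. Over genes, its rank (Spearman) correlation with the remaining controls averaged 0.935, while that of each other control was at least 0.979, and its TMM factor was 0.886 against 1.06 to 1.08. Genes are not independent replicates, and the correlation is descriptive. In all, 3076 genes were called, and 6251 without DMSO replicate 1, when 22.5% of the genes tested were called increased and 23.5% decreased. Of 10 retinal pigment epithelium markers, 9 had a row and 4 averaged over 1 CPM. RPE65, a defining marker, had 0 to 3 counts in a library, TTR 0 to 2 and RLBP1 0 to 4, whereas MITF, BEST1 and OTX2 averaged 50.8, 18.8 and 14.0 CPM in DMSO. MITF and OTX2 were lower in SFN, by log2 fold changes of -1.12 (edgeR adjusted p = 5.3e-05) and -0.64 (edgeR adjusted p = 0.0029). BEST1 went the other way without being called, with a log2 fold change of 1.17 (edgeR adjusted p = 0.16). Without DMSO replicate 1, BEST1 was called increased (1.68, edgeR adjusted p = 0.0096). The part of such marker changes in the values of the factors was not tested. Of 7 epithelial markers 6 had a row, with KRT8 and KRT18 at 383 and 196 CPM in DMSO but KRT19 at 0 to 5 and EPCAM at 0 to 2 counts in a library. The fibroblast list summed to 182 to 291 CPM in DMSO and 257 to 305 CPM in SFN, most of it THY1, and the neuron list to 27.0 to 78.1 and 41.6 to 89.0 CPM, most of it MAP2. Of 7 immune markers 4 had a row, and their summed level was 0 to 1.06 CPM in DMSO and 0.635 to 2.03 CPM in SFN.

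SFN increased ATF3, DDIT3, CEBPG, ATF4 and ATF2, and no factor was called decreased. By edgeR's quasi-likelihood test with adjustment over all genes tested, 5 of the 9 factors were increased, against a background of 9.07% of all genes, and 0 were decreased, against 13.9%. At an unadjusted p under 0.05, 6 were higher and 2 lower. DESeq2, an alternative tool, called ATF5 decreased and CEBPB increased as well. It called 3756 genes in all, against 3076 by edgeR. The shares of all genes in each direction were not computed for the unadjusted threshold or for DESeq2. Of the 5 increased, 4 rose more than 2-fold, a change that 2.94% of all genes showed upward and 5.76% downward. In 4 factors every SFN library lay above every DMSO library, as for 8.78% of all genes, and in none did every SFN library lie below, as for 11.1%. The median log2 fold change was 0.81 over the 9 factors and -0.028 over all genes tested. In such bulk RNA, a change in the number of responding cells and a change per cell cannot be told apart, and p-values measure the spread between these replicates of a single line.

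**Figure D1:**
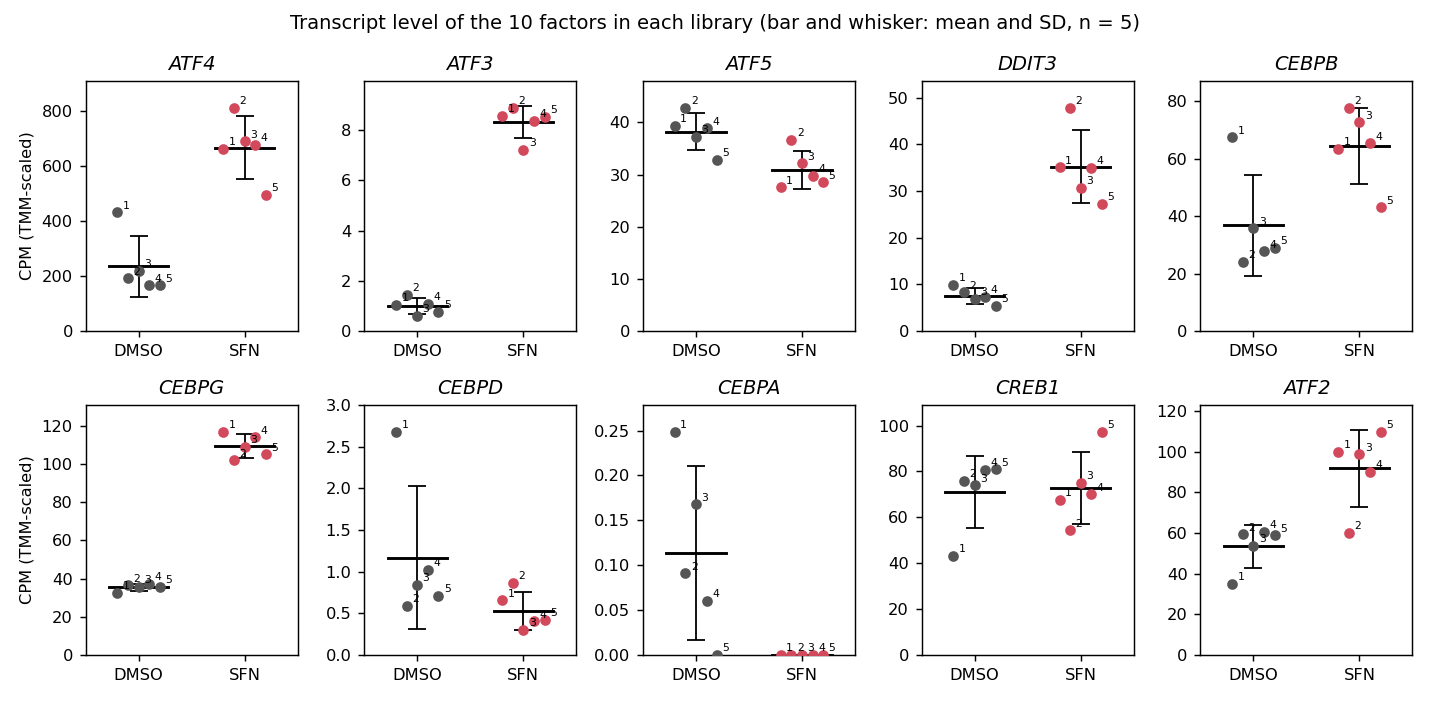
Level of each of the 10 factors (y axis, CPM on a linear scale from 0) in the 5 DMSO (grey) and 5 SFN (red) libraries, each point marked with its replicate number; bars and whiskers are the mean and SD. ATF4, ATF3, DDIT3 and CEBPG did not overlap between groups, and DMSO replicate 1 was the highest DMSO library for ATF4, CEBPB and CEBPD and the lowest for CREB1 and ATF2.

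ATF4 (chr22:39519695-39522683), the central effector of the ISR, had levels of 432, 192, 220, 167 and 167 CPM in DMSO replicates 1 to 5 and of 664, 812, 691, 677 and 495 CPM in SFN replicates 1 to 5. All SFN libraries were higher than all DMSO libraries, and DMSO replicate 1 was the control nearest to them. The mean rose from 236 ± 112 CPM (SD, n = 5) to 668 ± 113 CPM (SD, n = 5), a 2.83-fold increase (log2 fold change 1.50 ± 0.26 SE, edgeR adjusted p = 0.0015). The log2 fold change was 1.83 without DMSO replicate 1. The ATF4 gene has processed copies in the genome, to which the counting could have assigned some reads. Rows for ATF4P2, ATF4P3 and ATF4P4 together held 0.676% as many counts as ATF4 in DMSO and 0.542% in SFN. ATF4P3, the most abundant of them, had a log2 fold change of 1.05 ± 0.36 (SE, edgeR adjusted p = 0.052). Its log2 fold change was 1.39 without DMSO replicate 1 (edgeR adjusted p = 0.0021).

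ATF3 (chr1:212565334-212620777), a stress-induced factor of the CREB family that as a homodimer represses transcription, rose most. Its levels were 1.06, 1.46, 0.615, 1.08 and 0.77 CPM in DMSO and 8.58, 8.89, 7.22, 8.37 and 8.54 CPM in SFN, from 11 to 32 counts in a DMSO library and from 97 to 144 in an SFN library. The groups were far apart, and the SFN libraries lay close together. The mean rose from 0.997 ± 0.325 to 8.32 ± 0.641 CPM (SD, n = 5 each), or 8.22-fold (log2 fold change 3.04 ± 0.21 SE, edgeR adjusted p = 2.5e-06). DDIT3 (chr12:57516588-57521737) encodes CHOP, a dimer partner of C/EBP proteins that is linked to cell death under prolonged ER stress. Its levels were 9.90, 8.29, 6.93, 7.35 and 5.39 CPM in DMSO and 35.1, 47.8, 30.7, 35.0 and 27.2 CPM in SFN. SFN replicate 2 was the highest and SFN replicate 5 the lowest SFN library, which was also the order for ATF4. The mean of DDIT3 rose 4.63-fold, from 7.57 ± 1.67 to 35.1 ± 7.80 CPM (SD, n = 5 each; log2 fold change 2.21 ± 0.19 SE, edgeR adjusted p = 1.1e-05). The end of DDIT3 overlaps 982 bases of MARS1, the methionyl-tRNA synthetase gene on the other strand, and the use of strand in counting is not given in the sources used here. MARS1 also rose, from 86.1 ± 9.13 to 196 ± 5.75 CPM (SD, n = 5 each), and its part in the DDIT3 value was not tested. MBD6 overlaps the start of DDIT3 over 1028 bases on the other strand, and had a log2 fold change of -0.038 (SE 0.28, edgeR adjusted p = 0.95).

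The C/EBP proteins are the partners with which ATF4 occupies composite sites, and their genes differed from each other in response. CEBPG (chr19:33373685-33382686), which encodes an ATF4 partner without a strong activation domain of its own, had the lowest coefficients of variation of the 9 factors tested. It was measured at 32.4, 36.5, 35.6, 37.3 and 35.6 CPM in DMSO and at 117, 102, 109, 114 and 105 CPM in SFN. DMSO replicate 1 and SFN replicate 2 were the lowest libraries of their groups, the groups were far apart, and the coefficient of variation was 5.19% in DMSO and 5.71% in SFN. CEBPG rose 3.09-fold, from 35.5 ± 1.84 to 110 ± 6.26 CPM (SD, n = 5 each; log2 fold change 1.63 ± 0.091 SE, edgeR adjusted p = 4.6e-07). CEBPB (chr20:50190830-50192668), a factor of inflammation and differentiation that ATF4 is known to induce, was measured at 67.5, 24.2, 35.8, 27.8 and 29.1 CPM in DMSO and at 63.5, 77.7, 72.7, 65.3 and 43.1 CPM in SFN. The groups overlapped through DMSO replicate 1, which exceeded 3 of the 5 SFN libraries. The mean CEBPB level was 36.9 ± 17.6 CPM in DMSO and 64.5 ± 13.2 CPM in SFN (SD, n = 5 each), and the log2 fold change of 0.81 (standard error 0.27) did not pass the threshold (adjusted p = 0.051 by edgeR). It passed in 8 of 17 alternative analyses. Without DMSO replicate 1 the groups no longer overlapped, and the log2 fold change was 1.13 (adjusted p = 6.6e-05 by edgeR). CEBPB-AS1, which overlaps 669 bases of CEBPB on the opposite strand, had 4 to 16 counts in a DMSO library and 8 to 17 in an SFN library.

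The other C/EBP genes were measured at very few reads. CEBPD (chr8:47736913-47738164), an acute phase factor, had 43, 13, 15, 17 and 12 counts in DMSO and 11, 10, 4, 6 and 6 in SFN. DMSO replicate 1 was again highest. Its log2 fold change was -1.13 (SE 0.48, edgeR adjusted p = 0.12), and it was -0.58 (adjusted p = 0.21) without that library. CEBPA (chr19:33299934-33302534), a differentiation factor of liver, fat and myeloid cells, had 4, 2, 3, 1 and 0 counts in DMSO and 0 in each SFN library, and was too low to be tested. Summed over each group, this was 10 counts against 0, a level 2.79-fold lower in SFN if 3 counts over the SFN group are taken as the floor. That value takes the 10 DMSO counts as exact, so it leaves out their counting error and the spread between replicates, and it is not a lower bound.

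ATF5 (chr19:49928702-49933935), which like ATF4 is controlled by upstream reading frames and regulates mitochondrial stress genes, did not rise with ATF4. Its levels were 39.4, 42.8, 37.3, 38.9 and 32.9 CPM in DMSO and 27.6, 36.7, 32.2, 29.8 and 28.5 CPM in SFN, so that 4 of 5 SFN libraries were below all DMSO libraries. The mean was 38.2 ± 3.61 CPM in DMSO and 31.0 ± 3.63 CPM in SFN (SD, n = 5 each). The log2 fold change of -0.31 had a 95% interval from -0.56 to -0.054 and an adjusted p of 0.079 by edgeR, past the threshold in 5 of 17 alternatives. Those included the fits without DMSO replicate 1 (adjusted p = 0.030) and without SFN replicate 2 (adjusted p = 0.037). NUP62, which overlaps 1063 bases at the start of ATF5 on the other strand, fell by 0.56 on the log2 scale (SE 0.17, edgeR adjusted p = 0.038), a call that held in 11 of 17 alternatives. IL4I1 overlaps ATF5 there as well, over 838 bases.

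CREB1 and ATF2 are factors activated mainly by phosphorylation, CREB1 through cyclic AMP and ATF2 through stress kinases. CREB1 (chr2:207529737-207605988) was at 43.3, 76.0, 74.0, 80.6 and 80.9 CPM in DMSO and at 67.6, 54.3, 75.1, 70.0 and 97.4 CPM in SFN. SFN replicate 5 was above all DMSO libraries and DMSO replicate 1 below all SFN libraries, while the others overlapped. The log2 fold change was 0.039, with a 95% interval from -0.38 to 0.46 (adjusted p = 0.92 by edgeR). That interval does not show equality. ATF2 (chr2:175072250-175168382) was at 34.9, 59.3, 53.8, 60.6 and 58.9 CPM in DMSO and at 100, 60.1, 98.7, 90.3 and 110 CPM in SFN. It rose 1.72-fold (log2 fold change 0.78 ± 0.19 SE, edgeR adjusted p = 0.010), with 4 of 5 SFN libraries above all controls. SFN replicate 2 was at the control level for ATF2. DMSO replicate 1 and SFN replicate 2 were the lowest libraries of their groups for both genes. With both left out, an alternative chosen after seeing the data, the log2 fold change was 0.78 for ATF2 (adjusted p = 1.3e-06 by edgeR) and -0.0073 for CREB1 (adjusted p = 0.96 by edgeR). METTL21A, whose gene overlaps CREB1 on the other strand over 25358 bases, had a log2 fold change of -0.063 ± 0.19 (SE, edgeR adjusted p = 0.86).

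**Figure D2:**
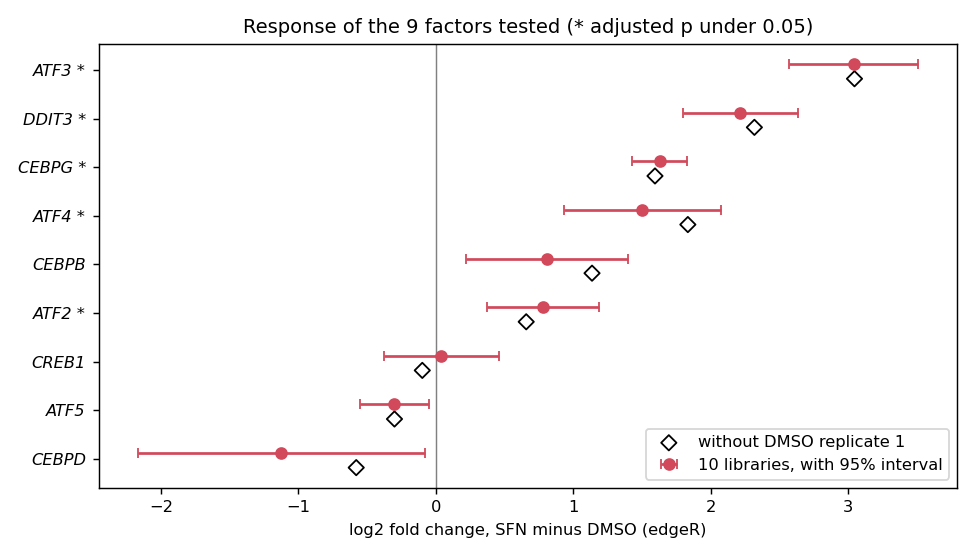
Log2 fold change (x axis) of SFN against DMSO for the 9 factors tested, with 95% intervals from edgeR on 10 libraries (red) and the value without DMSO replicate 1 (open diamonds). ATF3 had the largest change, 3.04, and leaving out DMSO replicate 1 moved CEBPD from -1.13 to -0.58, CEBPB from 0.81 to 1.13 and ATF4 from 1.50 to 1.83.

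To ask whether the factors differed from ATF4 in response, each count was divided by the ATF4 count of the same library, which removes library scaling. The 8 log2 ratios (0.5 added to each count) were compared between groups by a two-sided exact permutation test, with Benjamini-Hochberg adjustment over the 8. The smallest p that 5 against 5 libraries allow is 0.00794. The log2 ratio of ATF3 to ATF4 rose from -7.80 ± 0.71 to -6.31 ± 0.28 (SD, n = 5 each), a difference of 1.50 (exact p = 0.00794, adjusted p = 0.0127), higher in 5 of 5 SFN libraries than in any DMSO library. That of DDIT3 rose by 0.63, from -4.88 ± 0.39 to -4.25 ± 0.15 (exact p = 0.00794, adjusted p = 0.0127), and all 5 SFN libraries were again above. Thus ATF3 and DDIT3 rose more than ATF4 did. Without DMSO replicate 1 the differences were 1.29 for ATF3 and 0.486 for DDIT3. The share of all genes with such a rise against ATF4 was not computed. The adjusted p for DDIT3 was 0.0508 when SFN replicate 1, 2, 4 or 5 was left out.

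The ratio to ATF4 fell for 3 factors with all 5 SFN libraries below all DMSO libraries. The difference was -0.70 for CEBPB, -1.89 for ATF5 and -2.54 for CEBPD (exact p = 0.00794 and adjusted p = 0.0127 for each). ATF4 itself rose by a log2 fold change of 1.50, against a median of -0.028 over all genes tested. A gene that did not change would therefore also fall against ATF4, and the share of all genes with such a fall was not computed. For CEBPB the ratio was -2.68 ± 0.18 in DMSO and -3.38 ± 0.096 in SFN (SD, n = 5 each). DMSO replicate 1, which was high for both genes, did not stand apart in this ratio, and without it the difference was -0.70 as well. The log2 ratio of CEBPG to ATF4 was -2.63 ± 0.64 in DMSO and -2.59 ± 0.28 in SFN (SD, n = 5 each). The difference was 0.041 (exact p = 0.944, adjusted p = 0.944), which does not show an equal rise of both genes. Leaving out each library in turn moved this value between -0.23, without DMSO replicate 1, and 0.16. The difference was -1.54 for CREB1 (exact p = 0.0397, adjusted p = 0.0529) and -0.81 for ATF2 (exact p = 0.151, adjusted p = 0.172). Without DMSO replicate 1 both passed the threshold, at -1.95 for CREB1 (adjusted p = 0.0127) and -1.20 for ATF2 (adjusted p = 0.0181).

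**Figure D3:**
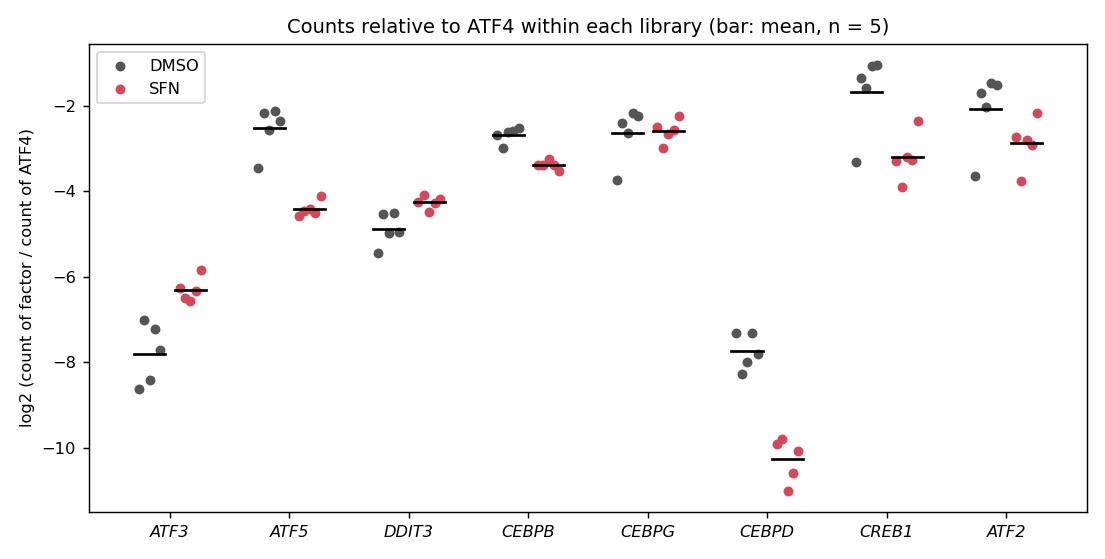
Log2 ratio of each factor's count to the ATF4 count of the same library (y axis) in DMSO (grey) and SFN (red), with the mean of 5 libraries as a bar. ATF3 and DDIT3 lay higher in every SFN library, ATF5, CEBPB and CEBPD lay lower in every SFN library, and CEBPG overlapped, with means of -2.63 in DMSO and -2.59 in SFN. Because ATF4 rose, a gene that did not change also lies lower in SFN.

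Upstream of the factors, the genes for eIF2, its exchange factor eIF2B and its kinases were largely not called, while both phosphatase subunits rose. Of 18 such genes 4 were increased and 1 decreased, against 9.07% and 13.9% of all genes. These counts were 6 and 2 without DMSO replicate 1, against 22.5% and 23.5%, with GCN1, a coactivator of the kinase GCN2, among the decreased (log2 fold change -0.43, edgeR adjusted p = 0.0050). PPP1R15A (GADD34), which recruits the phosphatase that restores eIF2, rose from 170 ± 17.3 to 633 ± 56.6 CPM (SD, n = 5 each; log2 fold change 1.90, standard error 0.11), and PPP1R15B, its constitutive relative, by a log2 fold change of 0.91 (standard error 0.13). The ER stress kinase gene EIF2AK3 (PERK) rose by 1.33 (standard error 0.19) on that scale. The log2 fold changes of EIF2AK1, EIF2AK2 and EIF2AK4 were 0.14, -0.14 and -0.36, none of them called. OMA1 and DELE1 encode a mitochondrial protease and the substrate through which it signals to the ISR. OMA1 rose by 0.75 (standard error 0.14), while DELE1 fell by 0.40 on the log2 scale (standard error 0.12), a call that held in 8 of 17 alternatives. EIF2S2 depended on DMSO replicate 1, with a log2 fold change of 0.24 (adjusted p = 0.79 by edgeR) with it and 1.27 without it.

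Among 15 other tested genes of the ATF/CREB family and its relatives, 4 were increased and 1 decreased, against 9.07% and 13.9% of all genes. These counts were 5 and 3 without DMSO replicate 1, against 22.5% and 23.5%, with CREB3L1 (log2 fold change -0.55, edgeR adjusted p = 0.00064) and CREB5 (-0.49, edgeR adjusted p = 0.012) among the decreased. CREBRF, which encodes a regulator of the ER-bound factor CREB3, rose most, from 4.51 ± 1.08 to 25.8 ± 6.74 CPM (SD, n = 5 each; log2 fold change 2.52, standard error 0.22). XBP1, a factor of the unfolded protein response, rose by 2.14 (standard error 0.10) and JDP2, a repressor related to ATF3, by 1.26 (standard error 0.14). CREM, the cyclic AMP response element modulator, rose by 0.71 (standard error 0.16), and CREBZF, a related zipper protein, fell by 0.89 on the log2 scale (standard error 0.18). ATF6 and ATF6B, which encode ER stress sensors, had log2 fold changes of 0.29 and 0.17 and were not called. Of 9 AP-1 and NRF genes whose proteins can pair with these factors, 2 were increased and 0 decreased by edgeR, against 9.07% and 13.9% of all genes. Without adjustment of p 2 were lower, and DESeq2 and limma-voom each called 1 decreased. For those settings the shares of all genes in each direction were not computed. The 2 increased were FOS, at 0.463 ± 0.0775 CPM in DMSO and 2.25 ± 0.499 CPM in SFN (SD, n = 5 each; log2 fold change 2.26, standard error 0.25), and NFE2L2, which encodes NRF2 (log2 fold change 0.69, standard error 0.11). JUN had a log2 fold change of -0.24 (adjusted p = 0.11 by edgeR) and was called decreased without DMSO replicate 1 (-0.28, adjusted p = 0.013 by edgeR).

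Known ATF4 target genes rose in each of 4 functional groups. Of 45 tested, 32 were increased and 0 decreased by edgeR, against 9.07% and 13.9% of all genes, the shares to read beside each group as well. The counts were 34 and 1 without DMSO replicate 1, against 22.5% and 23.5%. Without adjustment of p, 33 were higher and 0 lower. DESeq2 called 32 increased and 0 decreased, and limma-voom 30 and 0. The shares of all genes in each direction were not computed without adjustment or for these other tools. Over the 45 the log2 fold change had a median of 0.59, compared with -0.028 over all genes. These lists, like the factors, were chosen with results of these data known. Among 10 signaling and stress regulators, 7 were increased. CHAC1, which degrades glutathione, went from 1 to 4 counts in a DMSO library to 200 to 259 in an SFN library (log2 fold change 7.02, standard error 0.27). DDIT4 and SESN2, inhibitors of mTORC1, rose by 4.62 (standard error 0.19) and 3.54 (standard error 0.17), and HERPUD1, of ER-associated degradation, by 2.95 (standard error 0.20). VEGFA, STC2 and EIF4EBP1 had log2 fold changes of 0.22, 0.20 and 0.39 and were not called, but EIF4EBP1 was increased without DMSO replicate 1 (0.85, adjusted p = 0.0010 by edgeR).

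Of 12 genes of amino acid synthesis 10 were increased. ASNS, the asparagine synthetase, rose from 0.412 ± 0.121 to 5.81 ± 0.930 CPM (SD, n = 5 each) and CTH, which makes cysteine from cystathionine, from 1.07 ± 0.396 to 13.3 ± 1.83 CPM (log2 fold changes 3.79 and 3.63, standard errors 0.24 and 0.23). PSAT1 of serine synthesis rose by 1.43 (standard error 0.10) and the mitochondrial folate enzyme MTHFD2 by 1.16 (standard error 0.098). Of 9 amino acid transporters 5 were increased. SLC3A2, the shared heavy chain, rose by 2.17 (standard error 0.14), and its partners SLC7A11 and SLC7A5 by 1.61 (standard error 0.19) and 0.74 (standard error 0.22), the latter in 10 of 17 alternatives. SLC1A4 rose by 1.10 (standard error 0.15). Of 14 genes of tRNA charging and export 10 were increased, led by GARS1 at 1.29 (standard error 0.12), MARS1 at 1.19 (standard error 0.10), CARS1 at 0.99 (standard error 0.19) and YARS1 at 0.76 (standard error 0.12). The alanyl, leucyl and valyl enzymes AARS1, LARS1 and VARS1 had log2 fold changes of -0.039, -0.051 and 0.037.

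The genes linked to CHOP were mixed. Of 8, 4 were increased and 1 decreased, against 9.07% and 13.9% of all genes, with CHAC1 and TRIB3 also on the ATF4 lists and PPP1R15A on the eIF2 list. TRIB3, a pseudokinase that binds ATF4 and CHOP, rose by a log2 fold change of 2.92 (standard error 0.20). Of the BH3-only death genes, PMAIP1 (NOXA) rose from 43.9 ± 5.50 to 197 ± 19.5 CPM and BCL2L11 (BIM) fell from 5.54 ± 1.49 to 2.02 ± 0.832 CPM (SD, n = 5 each; log2 fold changes 2.16 and -1.44, standard errors 0.12 and 0.31). BBC3, TNFRSF10B and ERO1A were not called, with log2 fold changes of 0.73, 0.32 and 0.21. Of 8 mitochondrial chaperones and proteases of the stress response in which ATF5 acts, 3 were increased and 0 decreased by edgeR, against 9.07% and 13.9% of all genes. The counts were 4 and 0 without adjustment of p, 4 and 0 by DESeq2, and 2 and 0 by limma-voom. For those settings the shares of all genes in each direction were not computed. The 3 increased were HSPD1 (0.48, standard error 0.15), HSPA9 (0.42, standard error 0.091) and LONP1 (0.41, standard error 0.095), and HSPD1 passed in 9 of 17 alternatives. Without DMSO replicate 1, 6 were increased and 1 decreased, against 22.5% and 23.5% of all genes.

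**Figure D4:**
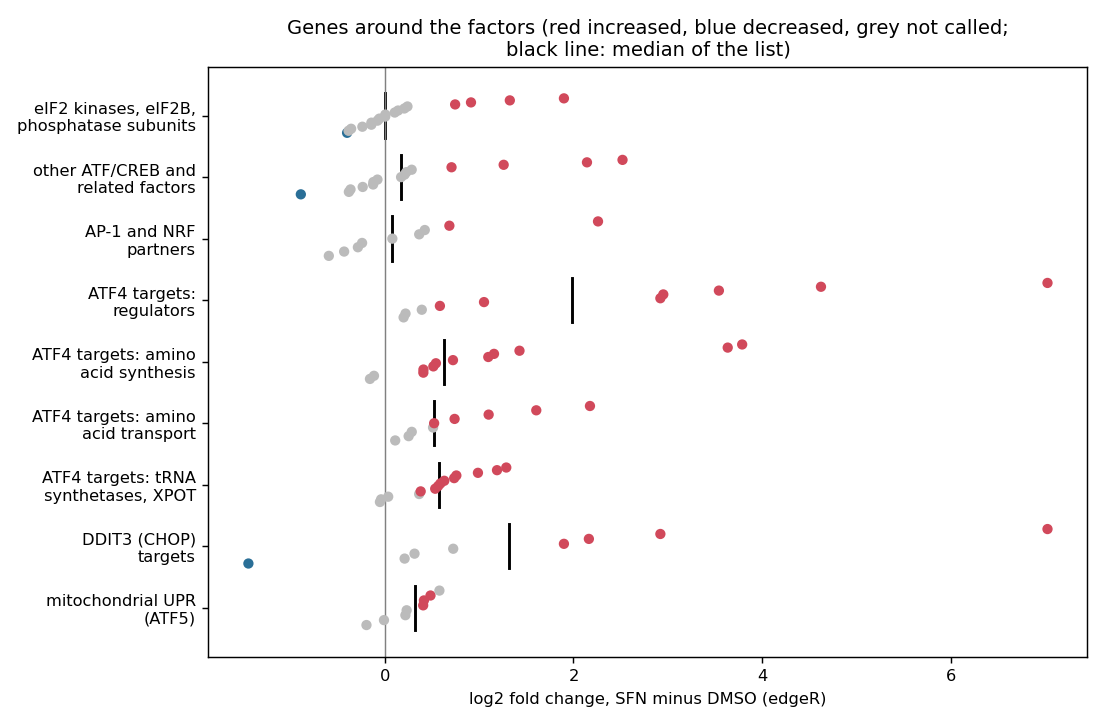
Log2 fold change (x axis) of each tested gene on 9 lists around the factors, with called genes in red (increased) or blue (decreased), the others in grey and the list median as a black line. Genes of the ATF4 lists lie mostly to the right of 0, with CHAC1 farthest at 7.02, and the decreased genes are DELE1, CREBZF and BCL2L11.

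Among the genes whose profile over the 10 libraries lay closest to that of ATF4 were MIR22HG and CHIC2. Closeness was the root mean square distance of log2(CPM + 1) after the DMSO mean of each gene was subtracted, and it was 0.154 and 0.228. MIR22HG, a microRNA host transcript, and CHIC2 both rose, by log2 fold changes of 1.59 (standard error 0.20) and 1.56 (standard error 0.18). Closest to ATF3 were THAP2, XBP1 and SLC3A2, at distances of 0.180, 0.183 and 0.204. Their log2 fold changes were 2.63, 2.14 and 2.17, against 3.04 for ATF3. ATF3 averaged 0.997 CPM in DMSO, where adding 1 CPM shrinks the change on this scale. DDIT3 was closest to SLC3A2, GCNA and AC009108.3, at 0.165, 0.174 and 0.230, so SLC3A2 was near to both on this scale. The last of these had a mean of 0.0112 CPM in DMSO and 2.83 CPM in SFN, on a scale where 1 CPM was added before the logarithm.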

How the data were processed

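RNA of RPE-1 cells was profiled in 5 DMSO and 5 SFN (25 µM) samples after 4 h. The deposited values are raw read counts per Ensembl gene, 28380 rows in all. Per the study's methods, QuantSeq 3′ reads were aligned on GRCh38 by the Bluebee pipeline. The submitters' processing notes list FastQC, STAR, featureCounts and edgeR without versions. Strand setting, counting rules and molecular identifiers are not given in the sources used here. Without strand, reads from overlapping genes cannot be told apart.

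Groups were taken from the treatment labels. The 10 factors were found by gene symbol, and gene positions are those of GENCODE 44 on GRCh38. The members, gene lists and tests were chosen with earlier results of these data known. Counts were filtered (filterByExpr), scaled by TMM and tested with edgeR 4.0.16 (R 4.3.3, quasi-likelihood, no block), with Benjamini-Hochberg adjustment over 13378 genes and a threshold of 0.05. DESeq2 1.42.0, limma-voom 3.58.1 on quantile normalized values, RLE scaling, library size only, no filter, a replicate block, each library left out, and 1 pair of libraries left out together were the 17 alternatives. For the ratios to ATF4 these were a pseudocount of 5 counts, the block and each library left out. Scripts were tested on simulated data. Counts per sample were 12375860 to 20666692, which leaves CEBPA and CEBPD near the limit of detection. ATF3 was as low in DMSO, at 11 to 32 counts in a library, against 12 to 43 for CEBPD. The counts of replicates differed by more than sampling noise (chi-square per degree of freedom 3.70 or more).

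Named genes were all 10 factors, in each list the 4 largest called changes and up to 2 called in the minority direction, and the 3 nearest profiles of ATF4, ATF3 and DDIT3, of which 1 is not reported here. Other genes were named after their values were seen. Of the gene IDs, 28145 matched the gene name table.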

Additional observations from a re-analysis of the deposited data

Results flagged for a closer look

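In 7 of the 35 groups of values examined, DMSO and SFN groups together, 1 library stood farther from the others than Dixon's 95% limit for 5 samples. It was DMSO replicate 1 each time, which is part of the DMSO groups only. Chance gives about 1 in 20 for independent groups, but these groups share libraries, and the ratios share the ATF4 count. The measure is the gap to the nearest library divided by the range of the group. It was 0.80 for ATF4, 0.733 for CEBPB and 0.793 for CEBPD, where this library was highest. It was 0.815 for CREB1 and 0.736 for ATF2, where it was lowest. For the log2 ratio to ATF4 it was 0.768 for CREB1 and 0.739 for ATF2, both lowest in this library. ATF3, ATF5, DDIT3 and CEBPG were not among them. Their log2 ratios to ATF4 were also lowest in DMSO replicate 1 among the DMSO libraries, but within the limit. For CEBPG this ratio was -3.74, against -2.63 in DMSO replicate 3, the next lowest.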

How the results depend on the processing

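The calls of ATF4, ATF3, DDIT3, CEBPG and ATF2 held in all 17 alternatives, and between 5 and 7 factors were called in each. Genes called in all were 6251 without DMSO replicate 1 (2383 to 6251 with 1 library left out) and 6379 without DMSO replicate 1 and SFN replicate 2, a setting chosen after seeing the data. The bracketed values and ranges that follow for CEBPB, ATF5 and CREB1 are log2 fold changes. CEBPB, at an adjusted p just over 0.05, passed by DESeq2 (0.816), limma-voom (0.886), library size only (0.758), no filter (0.805), the replicate block (0.884) and without both libraries (1.07), and was 0.685 to 1.13 with 1 left out. ATF5 passed by DESeq2 (-0.292), library size only (-0.391) and without both (-0.363), with -0.367 to -0.263 when 1 was left out. CREB1, not called in any, turned negative with library size only (-0.0633) and without both (-0.00726), with -0.0996 to 0.130 when 1 was left out. Library size only moved the median log2 fold change of all genes to -0.111.

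The study's methods state that its own test allowed for repeated measures, but do not say which libraries were linked. The replicate numbers were not found to pair the libraries (same-number correlations -0.367 to 0.602, with 1 of 5 best matched to its own number). With the block 2441 genes and 6 factors were called. For the paired ratios to ATF4 the smallest exact p is 0.0625, so none could pass, at differences of 1.50 for ATF3, -1.89 for ATF5, 0.627 for DDIT3, -0.703 for CEBPB and -2.54 for CEBPD. With 1 library left out, the ratio difference was 0.486 to 0.721 for DDIT3, -0.235 to 0.157 for CEBPG (-0.0484 without SFN replicate 5), -1.95 to -1.36 for CREB1 and -1.20 to -0.588 for ATF2. The mitochondrial list had 0 genes called with no filter. The cause of these changes was not tested.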

Other observations

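GDF15, a stress cytokine that ATF4 and CHOP are known to induce, had 0 counts in each DMSO library and 8, 0, 1, 0 and 1 counts in SFN replicates 1 to 5, and was too low to be tested. The divergent transcript CEBPA-DT had 0 to 3 counts in a DMSO library and 0 or 1 in an SFN library. With no filter on low counts, CEBPA itself had an adjusted p of 0.092 by edgeR.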
